A study of Bos taurus with 12 samples.

Results

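The genes of albumin and 9 acute-phase proteins were followed in newborn Holstein calves. The 10 genes were chosen by symbol as ALB, HP, ORM1, HPX, ITIH3, ITIH4, LBP, CP, CRP and M-SAA3.2, and all 10 were found among the 30336 gene IDs of the count files. RNA had been sequenced from liver biopsies of 4 d old heifer calves, in 12 libraries. In the control group (CON, 6 libraries) the dams ate a basal close-up diet without added methionine over the last 28 d of gestation, and in the MET group (6 libraries) the dams ate that diet with ethyl cellulose rumen-protected methionine added (Mepron). The added methionine was fed to the dam and not to the calf. The calves of both groups were managed alike after birth, but each was offered the first colostrum of its own dam. The comparison asks whether the dam's diet goes with a different expression of these genes in her calf. The study adds that cows fed this product eat more, so that a part of other nutrients cannot be disregarded.

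Albumin is the main carrier protein of plasma and is made by hepatocytes. In an acute-phase response, cytokines from activated macrophages act on hepatocytes through STAT3 and NF-kB, and the liver raises the output of proteins that bind haemoglobin, haem, copper or bacterial products while albumin output falls. In cattle, haptoglobin and serum amyloid A are the proteins most used to follow this response in blood.

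Between 8277789 and 10397604 reads per library were assigned to genes. Counts of CON 1 and CON 4 were almost as alike as 2 draws from 1 library (chi-square per gene 1.33), and so were counts of MET 1 and MET 3 (1.24), against 25.1 to 132.9 in the other 64 pairs of libraries. The reads of each pair were summed and counted as 1 sample, which left 5 samples per diet, and replicate 1 of either diet stands for its pair below. By this measure, MET 5 and MET 4 stood apart from the rest, with a median chi-square per gene of 110.8 and 64.9 against the other libraries, beside medians of 34.6 to 48.2 for the other 10 libraries. The measure is a mean over genes of a chi-square on raw counts, which grows with read number. Highly counted genes, members among them, thus weigh most, and it shows no departure that is separate from theirs. All libraries were read on 1 lane, and each diet had its own first index sequence, so that effects of the index and of the diet cannot be told apart. Values are counts scaled to a common library total after TMM normalization (CPM), and differences are log2 fold changes of MET against CON with their standard error (SE). The edgeR quasi-likelihood test over the 10 samples called 0 of 13242 tested genes at FDR at most 0.10 (0% of genes), while 2165 of them (16.3%) passed an unadjusted p of 0.05. The same test over the 12 libraries, the design of the study, called 583 of 13212 genes (4.41%). Over the 10 samples, DESeq2 called 639 genes (4.83%) and edgeR's likelihood-ratio test 333 (2.51%), and over the 12 libraries DESeq2 called 9.95% of genes.

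Of the 10 genes, 9 passed the default filter on low counts, and none of these 9 reached FDR at most 0.10 in edgeR over the 10 samples or over the 12 libraries. At an unadjusted p of at most 0.05 there were 2 of the 9, ALB lower and LBP higher in MET, where 8.52% of all genes were lower and 7.83% higher at such a p. Over the 12 libraries only ALB had such a p, beside 20.5% of all genes. Of the 9, 7 had a fold change above 0 and 2 below, with a median log2 fold change of 0.23 beside −0.0028 for all tested genes. M-SAA3.2 stayed below that filter and was fitted with a lower one. No member separated the diets fully over the 10 samples, where 492 of the tested genes (3.72%) did, nor did any over the 12 libraries (2.56% of genes). The plot of CPM by sample shows these values for each gene.

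**Figure D1:**
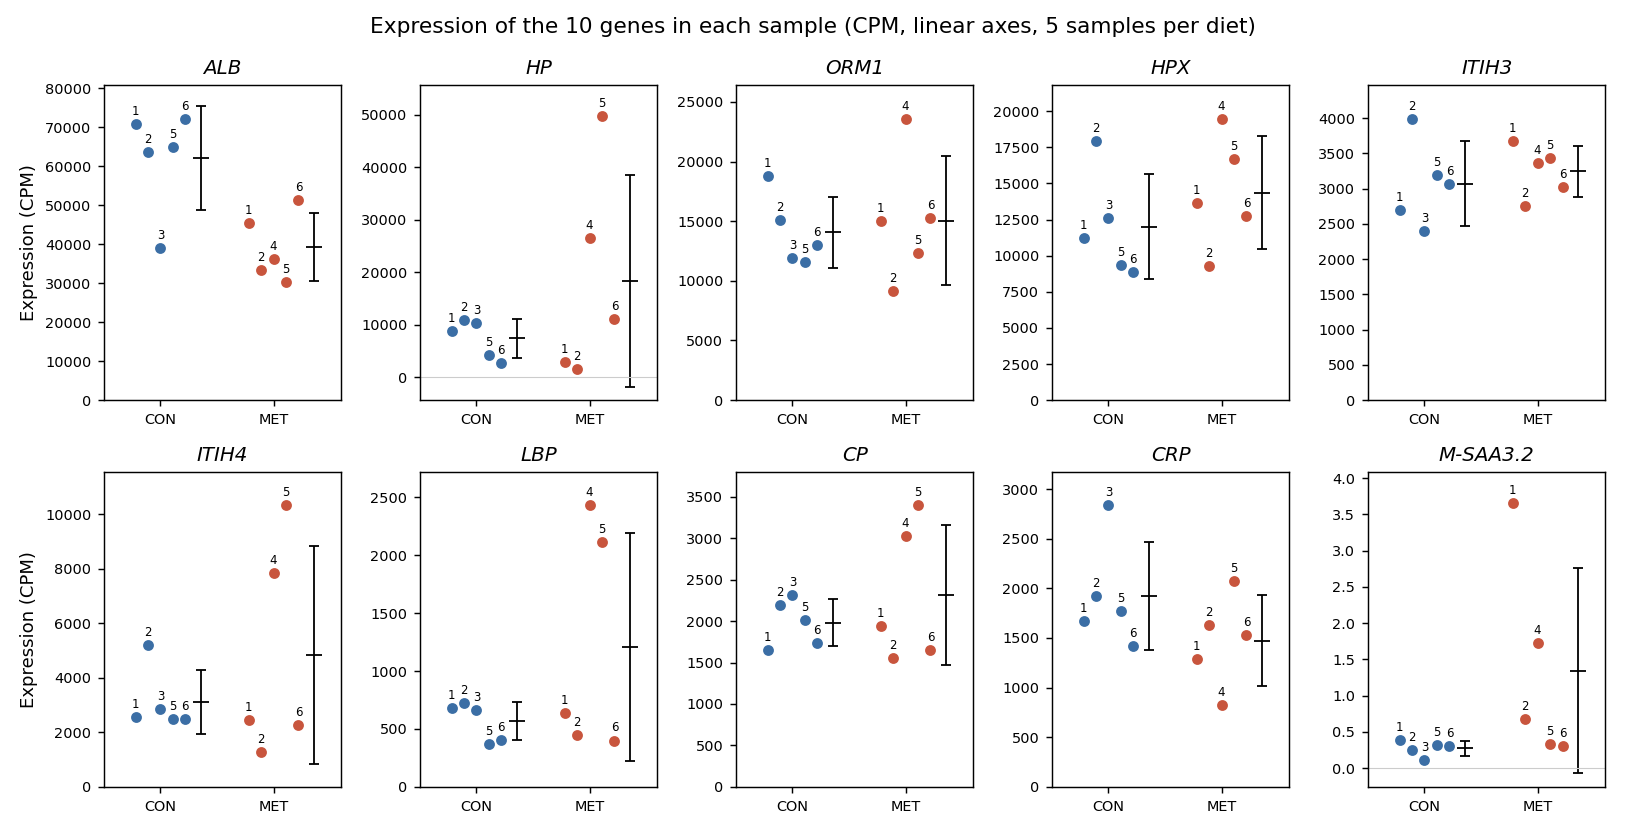
Expression of each of the 10 genes (CPM, linear axes starting at or just below 0) in the 5 CON (blue) and 5 MET (red) samples, each point labelled with its replicate number and with the mean and SD in black. For ALB, 4 of the 5 CON samples lie above the highest MET sample, and for HP, ITIH4, LBP and CP the MET replicates 4 and 5 are the highest of the 10 samples.

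Levels of different genes were compared per length, as reads per base of exon scaled to a common total (TPM). ALB had the highest median of all genes in these livers at 41287 TPM, and ORM1 came next at 32863 TPM. HPX had a median of 15715 TPM and HP of 12155 TPM. Those of ITIH3 and ITIH4 were 1938 and 1270 TPM. CP, CRP and LBP had medians of 816, 753 and 648 TPM. M-SAA3.2 stood far apart at 1.05 TPM, rank 12568 among all genes. The TPM ranges over the 10 samples overlapped between ALB (23977 to 67753) and ORM1 (24275 to 52163), so that this order does not exceed the spread between calves. ORM1 stayed above HPX (11644 to 21983) in each sample of either gene, and HPX stayed above ITIH3 (1638 to 2369). HP spread from 2361 to 59266 TPM and overlapped all 4 of these genes, and the ranges of ITIH4, CP, CRP and LBP overlapped each other.

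ALB (Entrez gene 280717) lies on chromosome 6 from 90232762 to 90251122 of the bovine assembly UMD 3.1.1, on the plus strand, with 2048 bases of exons. Its expression was 70986, 63613, 39124, 64897 and 72228 CPM in CON replicates 1, 2, 3, 5 and 6. In MET replicates 1, 2, 4, 5 and 6 it was 45549, 33461, 36264, 30413 and 51322 CPM. In CON, 4 of the 5 samples lay above the highest MET sample, and only CON 3 fell within the range of the MET samples. The means were 62170 ± 13412 CPM in CON and 39402 ± 8744 CPM in MET (SD, n = 5 each), with a log2 fold change of −0.66 (SE 0.25), 1.58-fold lower in MET. The unadjusted p was 0.0212 and the adjusted p 0.238 in edgeR's quasi-likelihood test over the 10 samples, and the adjusted p was 0.107 over the 12 libraries. ALB is in the study's list of differentially expressed genes, which was drawn from these same libraries and is no independent evidence of the direction. DESeq2 called it at an adjusted p of 0.0483 over the 10 samples and of 0.0106 over the 12 libraries. Fits that each omitted 1 sample gave log2 fold changes from −0.79 to −0.58, and without MET 4 and MET 5 it was −0.52 (adjusted p = 0.417).

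ALB alone took 6.16 ± 1.30% of all counted reads in CON and 3.97 ± 0.974% in MET (SD, n = 5 each). All 10 genes together held 10.5 ± 0.940% in CON and 9.87 ± 1.96% in MET, a difference within the spread between samples that changed sign without MET 2. Without ALB the other 9 genes held 4.35 ± 0.760% in CON and 5.90 ± 2.55% in MET. The MET samples held 4.35, 3.17, 8.27, 8.94 and 4.76% in replicates 1, 2, 4, 5 and 6, so that only MET 4 and MET 5 lay above the CON samples (3.49 to 5.18%). In bulk tissue, fewer cells of a type and less RNA of a gene per cell cannot be told apart. The 6 hepatocyte marker genes, none of them at 0, summed to between 5904 and 8547 CPM in CON and between 4021 and 6722 CPM in MET, and 4 of the 6 were lower in MET. The part of hepatocyte RNA content in the ALB difference was not tested.

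HP encodes haptoglobin, which binds free haemoglobin, and lies on chromosome 18 from 39173137 to 39179293 on the minus strand (Entrez gene 280692). CON samples had 8812, 10930, 10326, 4245 and 2652 CPM in replicates 1, 2, 3, 5 and 6. MET samples had 2914, 1604, 26554, 49737 and 11058 CPM in replicates 1, 2, 4, 5 and 6. The MET samples thus held the lowest value of all as well as the 3 highest, and MET 5 was 31.0-fold above MET 2. The mean was 7393 ± 3726 CPM in CON and 18373 ± 20152 CPM in MET (SD, n = 5 each), with a log2 fold change of 1.31 (SE 0.78) and an adjusted p of 0.423 in edgeR. The SD of log2 CPM within a diet was 1.61 for HP, a value that 99.4% of all tested genes did not exceed. Without MET 5 the log2 fold change was 0.51 (adjusted p = 0.772), and without MET 4 and MET 5 it was −0.51 (adjusted p = 0.757). The direction of the HP difference thus rested on those 2 samples.

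LBP encodes the lipopolysaccharide-binding protein, which hands bacterial lipopolysaccharide to CD14. It lies on chromosome 13 from 67875398 to 67910095 on the plus strand (Entrez gene 512242). In CON replicates 1, 2, 3, 5 and 6 it reached 679, 727, 663, 373 and 406 CPM. In MET replicates 1, 2, 4, 5 and 6 it reached 636, 450, 2430, 2113 and 400 CPM. MET 4 and MET 5 stood far above all others, and the remaining 3 MET samples lay within the CON range. The means were 570 ± 166 CPM in CON and 1206 ± 983 CPM in MET (SD, n = 5 each), with a log2 fold change of 1.08 (SE 0.50). The unadjusted p was 0.0493 and the adjusted p 0.304 in edgeR. The log2 fold change was 0.66 without MET 4, 0.78 without MET 5 and −0.20 without both.

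ITIH3 and ITIH4 encode heavy chains of the inter-alpha-trypsin inhibitor family, plasma proteins of which several bind hyaluronan of the extracellular matrix. They are neighbours on chromosome 22, ITIH4 from 48615118 to 48631094 on the plus strand (Entrez gene 513700) and ITIH3 from 48633830 to 48647808 on the minus strand (508355). ITIH4 was at 2549, 5196, 2849, 2503 and 2505 CPM in CON replicates 1, 2, 3, 5 and 6. In MET replicates 1, 2, 4, 5 and 6 it was at 2443, 1284, 7846, 10331 and 2268 CPM. As for HP and LBP, MET 4 and MET 5 were highest, but the other 3 MET samples lay below each CON sample. The log2 fold change of ITIH4 was 0.63 (SE 0.51, adjusted p = 0.566 in edgeR) and became −0.64 without MET 4 and MET 5 (adjusted p = 0.401). It was 0.15 without MET 5 alone and 0.89 without CON 2. ITIH3, by contrast, was among the steadier genes, at 2696, 3992, 2402, 3193 and 3070 CPM in CON replicates 1, 2, 3, 5 and 6. Its MET values were 3671, 2753, 3361, 3433 and 3024 CPM in replicates 1, 2, 4, 5 and 6, all within the CON range. The log2 fold change of ITIH3 was 0.08 (SE 0.17, adjusted p = 0.853 in edgeR). Although the 2 genes lie side by side, the SD of log2 CPM within a diet was 0.96 for ITIH4 and 0.23 for ITIH3, beside a median of 0.29 over all tested genes.

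CP encodes ceruloplasmin, the copper-carrying ferroxidase of plasma, on chromosome 1 from 119895923 to 119956192 of the plus strand (Entrez gene 514194). CON replicates 1, 2, 3, 5 and 6 had 1647, 2191, 2313, 2010 and 1738 CPM. MET replicates 1, 2, 4, 5 and 6 had 1941, 1556, 3025, 3396 and 1653 CPM. MET 4 and MET 5 again exceeded all other samples, here by a smaller margin, and the rest overlapped. Its log2 fold change was 0.23 (SE 0.24, adjusted p = 0.673 in edgeR) and −0.20 without those 2 samples, and it was 0.045 without MET 5 alone.

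**Figure D2:**
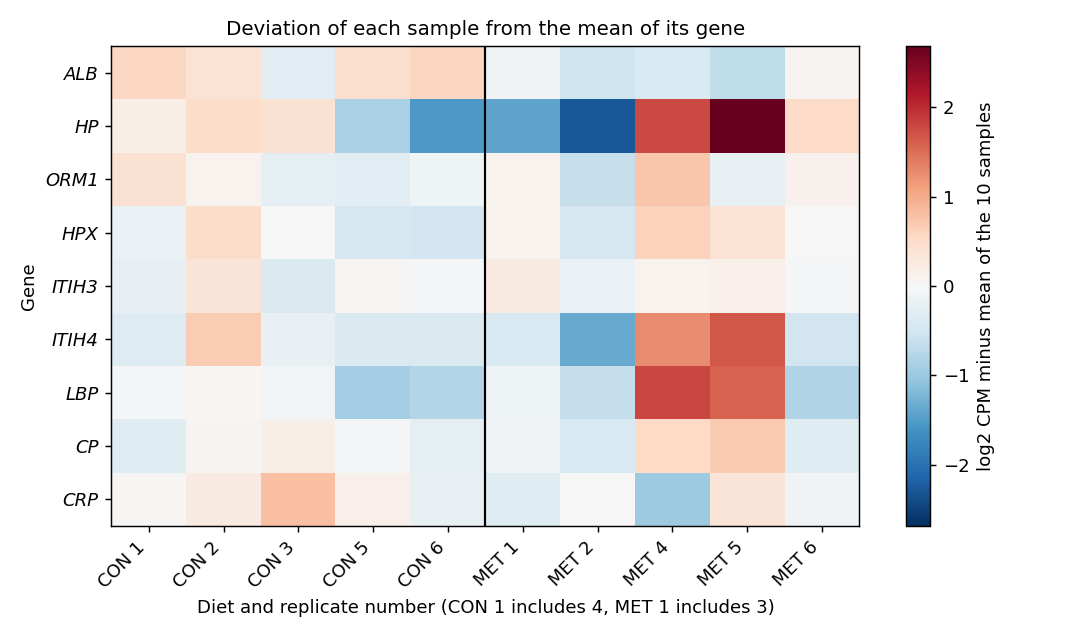
Deviation of each sample from the mean of its gene (log2 CPM minus the mean of the 10 samples, red higher and blue lower) for the 9 genes that passed the filter, with CON to the left and MET to the right of the line. MET 4 and MET 5 are red for HP, ITIH4, LBP and CP, MET 2 is blue for these 4 genes, and ITIH3 stays pale throughout.

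HPX encodes haemopexin, which binds free haem, on chromosome 15 from 47226087 to 47235666 of the plus strand (Entrez gene 534509). CON replicates 1, 2, 3, 5 and 6 had 11228, 17918, 12580, 9332 and 8898 CPM. MET replicates 1, 2, 4, 5 and 6 had 13637, 9287, 19484, 16688 and 12735 CPM. The highest value was that of MET 4, but CON 2 came before MET 5, and the diets overlapped over most of their range. The log2 fold change was 0.26 (SE 0.26, adjusted p = 0.651 in edgeR). It was 0.13 without MET 4, 0.17 without CON 6, 0.45 without CON 2 and −0.011 without MET 4 and MET 5.

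ORM1 encodes alpha-1-acid glycoprotein, a plasma carrier of lipophilic and basic compounds, on chromosome 8 from 105216969 to 105220439 of the plus strand (Entrez gene 497200). CON replicates 1, 2, 3, 5 and 6 gave 18779, 15088, 11925, 11578 and 12987 CPM. MET replicates 1, 2, 4, 5 and 6 gave 14989, 9113, 23589, 12292 and 15226 CPM. Both the highest (MET 4) and the lowest sample (MET 2) belonged to MET, and MET 5 was in the middle. With a log2 fold change of 0.10 (SE 0.26, adjusted p = 0.888 in edgeR), ORM1 had no clear direction, since its sign turned without MET 4 (−0.12).

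CRP encodes C-reactive protein, a pentraxin that binds phosphocholine on damaged cells and bacteria, on chromosome 3 from 10100406 to 10104524 of the plus strand (Entrez gene 527553). Its level was 1667, 1918, 2835, 1774 and 1416 CPM in CON replicates 1, 2, 3, 5 and 6. In MET replicates 1, 2, 4, 5 and 6 it was 1287, 1635, 829, 2072 and 1530 CPM. CRP did not follow HP, since MET 4 held its lowest value and MET 5 its highest among the MET samples. The log2 fold change was −0.39 (SE 0.25, adjusted p = 0.466 in edgeR) and stayed below 0 with each sample left out (−0.54 to −0.20). An unnamed gene (Entrez gene 790098) overlaps CRP on the same strand, and reads that matched both were not counted.

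MET 4 and MET 5 were the 2 highest samples for 4 of the 10 genes (HP, ITIH4, LBP and CP), which was the case for 542 of all 13242 tested genes (4.09%). They did not form one pattern over all members, since ALB was lowest in MET 5 and CRP was lowest in MET 4. The sum of the neutrophil markers was also highest there, with 147.6 CPM in MET 4 and 59.7 CPM in MET 5 against 14.2 to 49.5 CPM in the other samples. Of the 6 genes on that list, 5 were matched and 4 tested, none at 0 in all samples, and MET 4 and MET 5 were the 2 highest for 2 of the 4 (S100A12 and CXCR2). S100A8 and S100A9 were highest in MET 4, but CON 2 lay above MET 5. The sum of the hepatocyte markers was lowest in MET 5 and MET 4 (4021 and 5086 CPM, others 5904 to 8547 CPM), but these were the 2 lowest samples for only 2 of the 6 genes. CYP2E1 was at 470 CPM in MET 4 and 787 CPM in MET 5, below the other samples (1344 to 3650 CPM), whereas ASGR1 was highest of all samples in MET 5 (646 CPM). The sum of the cholangiocyte markers was lowest in both as well (30.5 and 32.2 CPM, others 50.7 to 78.0 CPM), as were 3 of its 4 tested genes. Their part in the HP, LBP, ITIH4 and CP values of these samples was not tested. The plot of fold changes with and without MET 4 and MET 5 gives the difference between the diets for each gene.

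**Figure D3:**
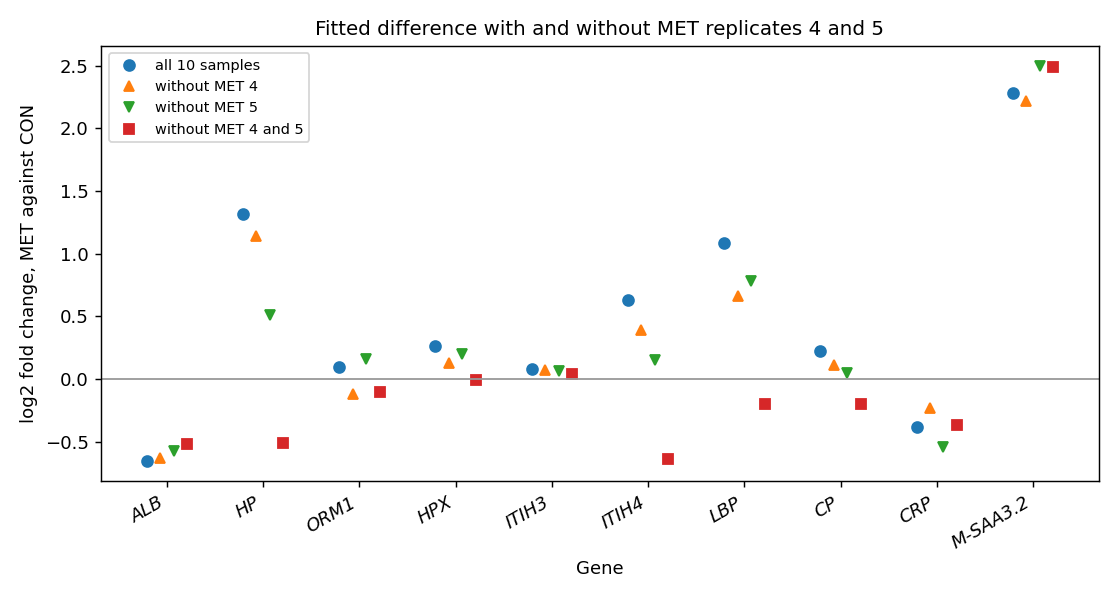
Log2 fold change of MET against CON for each gene over all 10 samples (circles), without MET 4 (upward triangles), without MET 5 (downward triangles) and without both (squares). HP, ITIH4, LBP and CP move from above 0 to below 0 when both samples are left out (HP from 1.31 to −0.51). ORM1 (to −0.10) and HPX (to −0.011) do so too, while ALB, CRP, ITIH3 and M-SAA3.2 keep their sign.

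M-SAA3.2 encodes a serum amyloid A of the SAA3 type first known from the mammary gland, and serum amyloid A proteins travel on high-density lipoprotein. The gene (Entrez gene 618238) lies on chromosome 29 from 26755567 to 26759547 of the plus strand, with SAA3, SAA2 and SAA4 within 91.5 kb in all. Because reads that fit several of these related genes equally well were not counted, its level is uncertain. In the 6 CON libraries, in order of replicate number, 5, 2, 1, 2, 3 and 3 reads were counted. In the 6 MET libraries the counts were 40, 7, 38, 15, 3 and 3. The CON libraries were near 3 reads, the smallest amount taken as detectable here (0.289 to 0.362 CPM by library), and so were MET 5 and MET 6. Of the 106 MET reads, 78 (73.6%) came from MET replicates 1 and 3, the pair of libraries counted as 1 sample. The lower filter asked for a CPM above 0.5 in at least 2 samples. None of the CON samples among the 10 reached that CPM, and of the CON libraries among the 12 only CON 1 did (0.526 CPM). Over either set, M-SAA3.2 thus entered the fit only because of the MET samples in which it is high, and the p values below are no fair test of the diet. In that fit the log2 fold change was 2.28 (SE 0.70, adjusted p = 0.202 in edgeR) over the 10 samples and 2.52 (adjusted p = 0.0888) over the 12 libraries, in which that pair counts as 2 samples. Without the pair it was 1.36 (adjusted p = 0.295). M-SAA3.2 is in the study's list of differentially expressed genes as well, again drawn from these libraries.

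**Figure D4:**
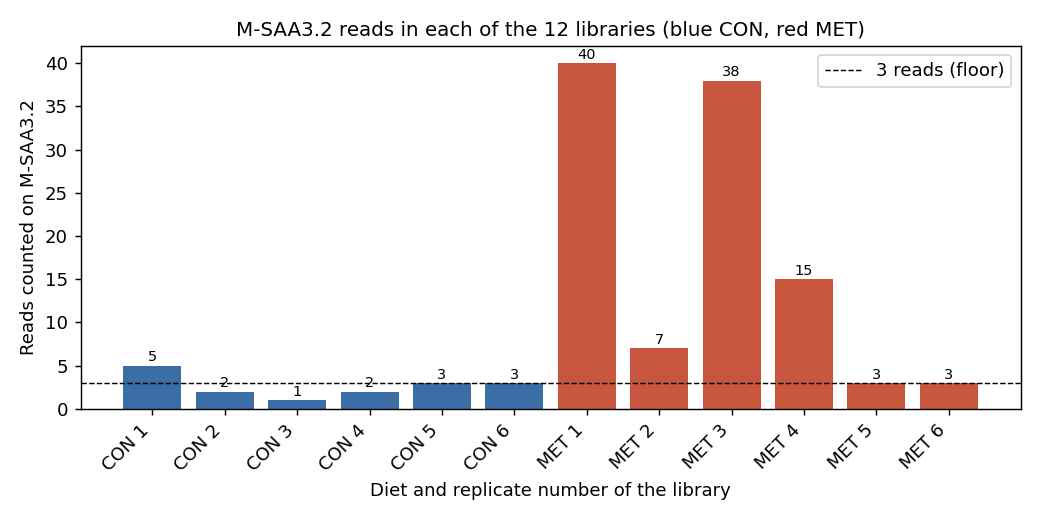
Reads counted on M-SAA3.2 in each of the 12 libraries, CON in blue and MET in red, with the floor of 3 reads as a dashed line. MET 1 and MET 3 hold 40 and 38 reads, MET 4 holds 15, MET 2 holds 7, and the other 8 libraries hold between 1 and 5.

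The other serum amyloid A genes of that cluster were far more expressed. SAA2 had a median of 11806 TPM and differed by 2.32-fold between its highest and lowest sample, while SAA3 had a median of 548 TPM and differed by 152-fold. SAA3 was at 291, 317, 45.6, 18.6 and 3.21 CPM in CON replicates 1, 2, 3, 5 and 6, and at 278, 22.3, 430, 489 and 23.4 CPM in MET replicates 1, 2, 4, 5 and 6. High and low SAA3 samples occurred in both diets, with MET 4 and MET 5 highest. SAA4 was at 1430, 1062, 898, 357 and 359 CPM in CON replicates 1, 2, 3, 5 and 6, and at 1270, 1129, 2189, 1027 and 683 CPM in MET replicates 1, 2, 4, 5 and 6. MET 4 and MET 1, the 2 highest samples for M-SAA3.2, were among its 3 highest, and the diets overlapped (log2 fold change 0.62, SE 0.41, adjusted p = 0.476 in edgeR). M-SAA3.2 was low in MET 5, where SAA3 was at its highest.

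**Figure D5:**
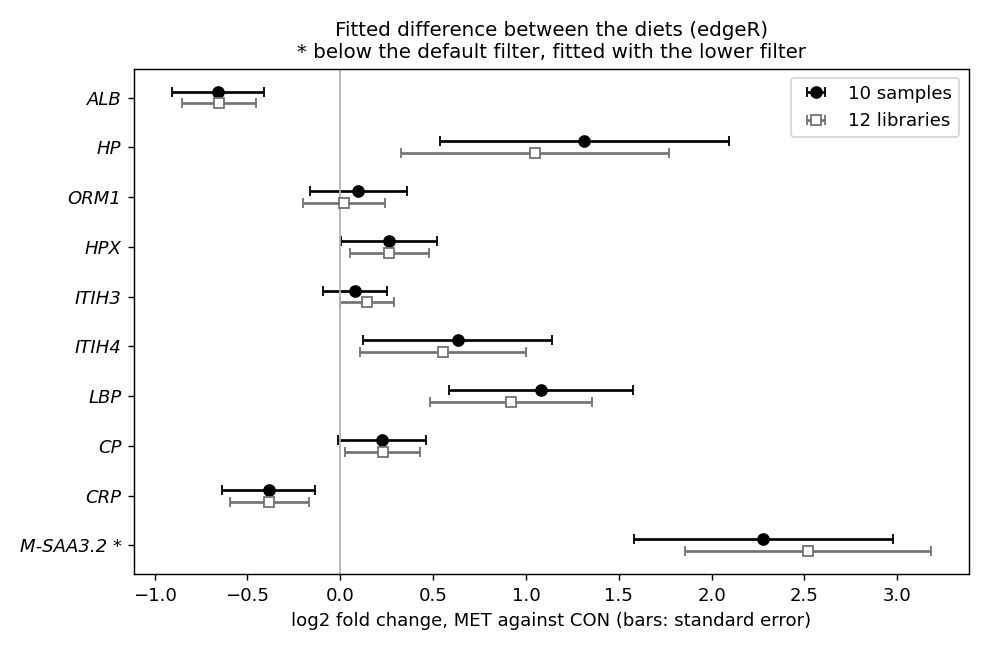
Log2 fold change of MET against CON (points) with its standard error (bars) from edgeR, over the 10 samples (filled circles) and over the 12 libraries (open squares). ALB and CRP lie below 0, ORM1 and ITIH3 lie near 0, and M-SAA3.2, which entered only through a lower filter that its MET samples met, is at 2.28 over 10 samples and 2.52 over 12 libraries.

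Related genes were followed in 6 lists, of whose 83 matched genes 77 were tested. None of the 77 reached FDR at most 0.10 in edgeR over the 10 samples, 4 did over the 12 libraries (HRG, IL1RAP, NR3C1 and CD14, beside 4.41% of all genes), and DESeq2 called 6 over the 10 samples (beside 4.83% of all genes). The diets did not overlap in 3 of the 77, beside 3.72% of all genes. Of 19 other positive acute-phase proteins, 14 had a higher and 5 a lower fitted value in MET, with a median log2 fold change of 0.15, and 1 (HAMP) had an unadjusted p of at most 0.05, beside 16.3% of all genes. HAMP encodes hepcidin, the hormone that limits iron export into plasma. It was at 6.66, 7.78, 0.228, 0.104 and 0.622 CPM in CON replicates 1, 2, 3, 5 and 6, and at 0.234, 146, 30.9, 19.0 and 59.6 CPM in MET replicates 1, 2, 4, 5 and 6. In MET, 4 samples lay above all CON samples, and MET 1 lay among the lowest CON values. The fitted log2 fold change was 4.00 (SE 1.19, adjusted p = 0.181 in edgeR), but CON 3 and CON 5 lay below 3 reads, so that its size is uncertain. MET 2, highest for HAMP, was lowest for HP. After HAMP, the highest fold change of the list was that of SAA3 (0.88, SE 1.09), and the lowest were those of SERPINA1 (−0.14) and AGT (−0.10). MET 4 and MET 5 were the 2 highest samples for 8 of the 19 genes (4.09% of all genes), SAA2, SAA3, SERPINA3, A2M, FGL1 and the fibrinogen chains FGA, FGB and FGG, all named after their values were seen. FGB, the beta chain, reached 44981 and 65042 CPM in these samples, against 25793 to 40315 CPM in CON and 25545 to 30439 CPM in the other MET samples.

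Of 12 other negative acute-phase proteins, whose plasma level falls in the response as that of albumin does, 4 had a higher and 8 a lower fitted value in MET, with a median log2 fold change of −0.25. HRG, the histidine-rich glycoprotein of plasma, had between 581 and 1273 CPM in CON and between 117 and 528 CPM in MET, without overlap. Its log2 fold change was −1.16 (SE 0.35), with an adjusted p of 0.183 over the 10 samples and of 0.0826 over the 12 libraries in edgeR. FETUB, which encodes fetuin-B, had a log2 fold change of −1.09 (adjusted p = 0.326 in edgeR), and the highest values of the list were those of SERPINA6 (0.17) and SERPINA7 (0.11). The other genes of the inter-alpha-trypsin inhibitor family ranged from −0.12 for ITIH2 and −0.08 for AMBP to 0.02 for ITIH1 and ITIH5, and none had an unadjusted p of at most 0.05.

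Of 22 tested cytokines, receptors and signal carriers of the acute-phase response, 12 had a higher and 10 a lower fitted value in MET, with a median log2 fold change of 0.02. An unadjusted p of at most 0.05 was found for 4 of them (IL1RAP, IL6R, IL6ST and LIFR), a share near the 16.3% of all tested genes. These 4 encode receptor chains, grouped after their values were seen, and had lower fitted values in MET, where 8.52% of all genes were lower at such a p. The other receptor chains of the list went both ways, with OSMR lower (−0.23) and TNFRSF1A (0.19) and IL1R1 (0.05) higher. IL1RAP, the accessory chain of the interleukin-1 receptor, had between 64.6 and 79.8 CPM in CON and between 35.0 and 58.3 CPM in MET, without overlap. Its log2 fold change was −0.64 (SE 0.14), with an adjusted p of 0.163 over the 10 samples and of 0.0402 over the 12 libraries in edgeR. LIFR had a log2 fold change of −0.71 (adjusted p = 0.228 in edgeR), and the interleukin-6 receptor chains IL6R and IL6ST had −0.58 and −0.35, with adjusted p of 0.188 and 0.263. The highest fold changes were those of SOCS3 (0.84, adjusted p = 0.365), a feedback inhibitor of STAT3, and TNF (0.31). No read of IL6 was counted in any library, which limits its own RNA to below 0.362 CPM per library at this depth.

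Of 11 transcription factors known to act on ALB and other hepatocyte genes, 3 had a higher and 8 a lower fitted value in MET, with a median log2 fold change of −0.13. NR3C1, the glucocorticoid receptor, had between 42.2 and 51.1 CPM in CON and between 25.3 and 35.4 CPM in MET, without overlap. Its log2 fold change was −0.48 (SE 0.12), with an adjusted p of 0.174 over the 10 samples and of 0.0528 over the 12 libraries in edgeR. The lowest fold change was that of ONECUT1 (−0.79, SE 0.47) and the highest were those of CEBPA (0.24) and FOXA2 (0.16).

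Of 9 tested receptors and partners of these plasma proteins, 8 had a higher and 1 a lower fitted value in MET, with a median log2 fold change of 0.18. CD14, to which LBP hands its ligand, was at 223, 230, 263, 263 and 170 CPM in CON replicates 1, 2, 3, 5 and 6, and at 364, 233, 318, 517 and 429 CPM in MET replicates 1, 2, 4, 5 and 6. In MET, 4 of the 5 samples lay above all CON samples (log2 fold change 0.70, SE 0.21), with an adjusted p of 0.181 over the 10 samples and of 0.0715 over the 12 libraries in edgeR. TLR2 had a log2 fold change of 0.25, TLR4 of −0.09 and FCGRT, which recycles albumin, of 0.06. Kupffer cell and macrophage markers, none at 0, had higher fitted values in MET for 9 of 9 tested genes, with sums of 1233 to 1641 CPM in CON and 1493 to 1956 CPM in MET. Their part in the CD14 values was not tested.

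Genes whose pattern was most like that of 3 members were sought by Spearman's rho of log2 CPM over the 10 samples among all tested genes, as a description of points that share diet and library. For ALB these were HPD (rho 0.976), SHH (0.964), MYL12A (0.952), SMARCD2 (0.927) and SECTM1A (0.927), and the most similar member was ORM1 at only 0.24. For HP these were GRB14 (0.988), IL10RB (0.976), RAB3D (0.952), C15H11orf96 (0.939) and the complement gene C3 (0.939), and the most similar member was HPX (0.794). Without MET 4 and MET 5 the rho of HP with these 5 genes was between 0.881 and 0.976 over 8 samples. The 5 genes had been picked from all tested genes for a high rho over the 10 samples, which include these 8. Their rho over the 8 samples thus follows from the selection. Over the same 8 samples the rho of HP with HPX was 0.69, and that with ITIH4 went from 0.71 to 0.43, values not comparable with those of the 5 genes. For M-SAA3.2, whose ranks rest on few reads, these were PSMB8 (0.952), LAS1L (0.952), MYD88 (0.927), MUC20 (0.915) and BBS4 (0.915), and the most similar member was ITIH3 (0.24).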

How the data were processed

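Liver RNA was measured in 12 libraries, which the labels assign to 12 calves and to their diets. Whether the 2 near-identical pairs are separate calves could not be settled from the counts. The authors aligned single-end stranded reads, trimmed with Trimmomatic, to UMD 3.1.1 with STAR 2.5.3a and deposited raw counts of reads per gene from featureCounts (Subread 1.5.2), per the file headers with reverse-strand counting of exons and without multi-mapping or multi-gene reads. Diets were compared with edgeR 4.0.16 (quasi-likelihood test, diet alone, TMM, default filter) in R 4.3.3, with Benjamini-Hochberg adjustment over all tested genes and FDR at most 0.10. The study's methods name this test, TMM and threshold but no limit for weakly expressed genes, so the filter may differ from theirs, and each near-identical library pair entered once here. M-SAA3.2 was fitted among genes with CPM above 0.5 in at least 2 samples, a limit that it met only through MET. TPM used the exonic lengths in the files. Symbols came from the study's gene list and a RefSeq table of assembly ARS-UCD2.0, which named 25117 of 30336 IDs. CEBPB, FPR2, ADGRE1 and CSF3R were not matched. SAA1 and SAA2 matched the same ID, used as SAA2.

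The 10 genes and all lists were chosen with earlier results of these data known. The genes named from a list are the 2 highest and the 2 lowest by fold change and those with FDR at most 0.10 over the 12 libraries. Others were named after their values were seen. Some listed genes are not reported here by name. Floors of 3 reads cover counting error only. Likeness for M-SAA3.2 used log2 of CPM plus 0.5. Alternatives were other scalings, filters and tests (DESeq2 1.42.0, limma 3.58.1), a replicate block, a length correction, and samples left out. After the data were seen, 2 were added: leaving out MET 4 and MET 5 together, and DESeq2 on 12 libraries. The steps were tested on simulated data. No sequence is shown, and quantitative PCR and plasma data were not analysed here. The study measured albumin and ceruloplasmin in calf plasma, before the day of the biopsy, and reported no significant difference between the diets for either.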

Additional observations from a re-analysis of the deposited data

Results flagged for a closer look

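In each diet, the highest and the lowest of the 5 samples were compared with the nearest other sample for each of the 10 genes (Dixon's criterion), and 2 of the 20 groups held a sample far from the rest, where chance gives about 1 in 20 groups. For ALB, CON 3 was at 39124 CPM while the other CON samples were between 63613 and 72228 CPM. CON 3 was also the highest of all samples for CRP and the lowest for ITIH3. For ITIH4, CON 2 was at 5196 CPM while the other CON samples were between 2503 and 2849 CPM. CON 2 was also the highest CON sample for HP, HPX, LBP and ITIH3.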

How the results depend on the processing

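Over 27 alternatives each (26 for M-SAA3.2), the log2 fold change stayed below 0 for ALB (−0.79 to −0.52) and CRP (−0.54 to −0.20) and above 0 for ITIH3 (0.0049 to 0.19) and M-SAA3.2 (1.36 to 2.56). Leaving out MET 4 and MET 5 together turned the sign of HP (−0.51), ORM1 (−0.10), HPX (−0.011), ITIH4 (−0.64), LBP (−0.20) and CP (−0.20). ORM1 also turned without MET 4 (−0.12) and after a trend on gene length was removed (−0.068), and ranged from −0.12 to 0.23 with 1 sample left out. The genes called at FDR at most 0.10 rose from 0 to 583 over the 12 libraries, 639 with DESeq2, 333 with edgeR's likelihood-ratio test and 1314 with DESeq2 on 12 libraries, and ranged from 0 to 39 with 1 sample left out, the highest without MET 1. The members called went from 0 to 1, ALB, with DESeq2 on either set, and M-SAA3.2, with the lower filter that it passed through MET, was called over the 12 libraries (adjusted p = 0.0888) and by the likelihood-ratio test (0.0928). Genes of the related lists that were called went from 0 to 4 over the 12 libraries, 6 with DESeq2, 4 with the likelihood-ratio test and 7 with DESeq2 on 12 libraries. The members with an unadjusted p of at most 0.05 went from 2 to 1 over the 12 libraries, with upper quartile factors, DESeq2 on either set, voom, robust estimation or the length correction. They went to 0 without MET 4 and MET 5, and ranged from 0 to 3 with 1 sample left out, 0 being without CON 1. With no filter or with the lower filter, where M-SAA3.2 entered, there were 3. Of all tested genes, 16.3% had such a p over the 10 samples and 20.5% over the 12 libraries, and the counts of members can be read only beside these shares. The members that did not overlap went from 0 to 1 without MET 4 and MET 5 (ITIH4, beside 8.65% of all genes), and ranged from 0 to 1 with 1 sample left out (ALB, without CON 3, beside 4.63%). Both follow from leaving out the samples that lay within or beyond the other diet. The diets shared replicate numbers, but same-numbered libraries did not deviate together (r between −0.19 and 0.15 over the 6 numbers). With the replicate number as a block over the 12 libraries, 6 genes were called, 0 members were called, 1 had an unadjusted p of at most 0.05, 0 genes of the related lists were called, and ORM1 turned to −0.010. HP moved to 0.12, LBP to 0.54, ITIH4 to 0.21, and M-SAA3.2 was not called (adjusted p = 0.176). With voom, HP was at 0.58 and ITIH4 at 0.27. The difference in the share of reads on the 10 genes, MET minus CON (−0.64 percentage points), ranged from −1.10 to 0.077 with 1 sample left out, the highest without MET 2. The cause of these shifts was not tested. At 1 to 5 reads per library, the depth sets no finer level for M-SAA3.2 in CON.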
